A study of Drosophila melanogaster with 2 samples.

Results

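The Polycomb and Trithorax group genes are 32 genes listed by name from their known roles, although earlier results of these data were known when the list was made, and all 32 were found among the 13945 protein-coding genes annotated on the chromosome arms of Drosophila melanogaster. The list holds 19 Polycomb group and 13 Trithorax group genes, and the other 13913 protein-coding genes are the comparison. Polycomb group proteins keep developmental genes such as the Hox genes silent, through complexes that methylate histone H3 and attach ubiquitin to histone H2A. Trithorax group proteins act in the opposite sense, by remodelling nucleosomes and by placing histone marks that go with transcription. Some Polycomb group genes, ph-p and ph-d among them, are themselves known targets of Polycomb proteins in flies.

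The binding of Ladybird early (Lbe), a homeodomain transcription factor of muscle, heart and nerve cells, was mapped at these genes by ChIP-seq, which sequences the DNA precipitated with a protein. There was 1 group of 2 biological replicates: whole embryos of mixed sex, collected between 0 and 24 h, of a transgenic line with GFP joined to the C-terminus of Lbe, precipitated with an antibody against GFP. No untagged or mutant group was compared, the control named for peak calling was not analysed here, and the embryos mix all cell types, so strong binding in few cells and weak binding in many cannot be told apart. The lists give regions and not reads, so the depth is unknown. All positions are in dm6. Each region has a signal from the authors' peak caller, whose scale is unstated and differs between lists. The rank within a list is therefore given beside it, with rank 1 the strongest.

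Lbe-GFP peaks lay at the promoters of 16 of the 32 genes. A promoter peak is here a peak past the irreproducible discovery rate (IDR) threshold, which the authors derived from both replicates, whose summit lay within 1000 bp of an annotated transcription start site (TSS) of the gene. The Polycomb group had such a peak at 10 of 19 genes, or 52.6% (95% Wilson interval 31.7 to 72.7), and the Trithorax group at 6 of 13, or 46.2% (23.2 to 70.9). Of the other protein-coding genes, 24.4% (23.7 to 25.1) had one, and the share over all 32 genes was 50.0% (33.6 to 66.4). The lower bound of the Trithorax interval lies close to the share of other genes, and which of them is higher depends on the setting. At 23.2%, the bound was above the other share with a 500 bp window (21.4%), 1 TSS per gene (22.6%) and replicate 2 alone (22.2%). It was below with gene bodies counted (26.8%), region overlap in place of the summit (25.4%) and replicate 1 alone (25.6%). With a 2000 bp window both were 29.1%. With the 2376 strongest IDR peaks on the arms the bound was 8.18% against 13.7%, and with the nearest TSS only 12.7% against 17.9%. At promoters shared with no other gene it was 9.45% against 15.2%. No test of the difference from other genes was made, because the genes of a list are not replicates. The intervals cover the counting of genes alone.

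Each replicate was also taken alone, using as many of its strongest regions as there are IDR peaks (4782), and the shares of both groups were again above that of other genes. In replicate 1 the promoters of 57.9% of Polycomb group and 46.2% of Trithorax group genes held such a region, against 25.6% of other genes. In replicate 2 the shares were 52.6% and 46.2%, against 22.2%. The equal Trithorax shares came in part from different genes, with Bap55 and Snr1 in replicate 1 alone and ash2 and Utx in replicate 2 alone. A promoter region among the strongest of both replicates was present at 47.4% of Polycomb group (27.3 to 68.3) and 30.8% of Trithorax group genes (12.7 to 57.6). The share of other genes was 16.8%. In the whole pooled list, which also holds weak regions and background, 89.5% of Polycomb group and 69.2% of Trithorax group promoters held a region, against 51.7% of others. The pooled list had no promoter region at 6 of the 32 genes, namely esc, escl, Bap60, ash1, ash2 and trr.

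The Polycomb and Trithorax shares differed by less than the counting error. The Polycomb share was 6.48 percentage points above the Trithorax share, with a 95% interval of -25.9 to 36.9. The sign turned with a window of 500 bp (-4.05 points) and among genes whose promoter is shared with no other gene (-7.14 points). The latter value rests on 3 of 7 Polycomb group and 1 of 2 Trithorax group genes, with an interval of -55.9 to 44.6. Among the 2376 strongest IDR peaks on the arms, 42.1% of Polycomb group and 23.1% of Trithorax group genes had a promoter peak, against 13.7% of other genes.

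**Figure D1:**
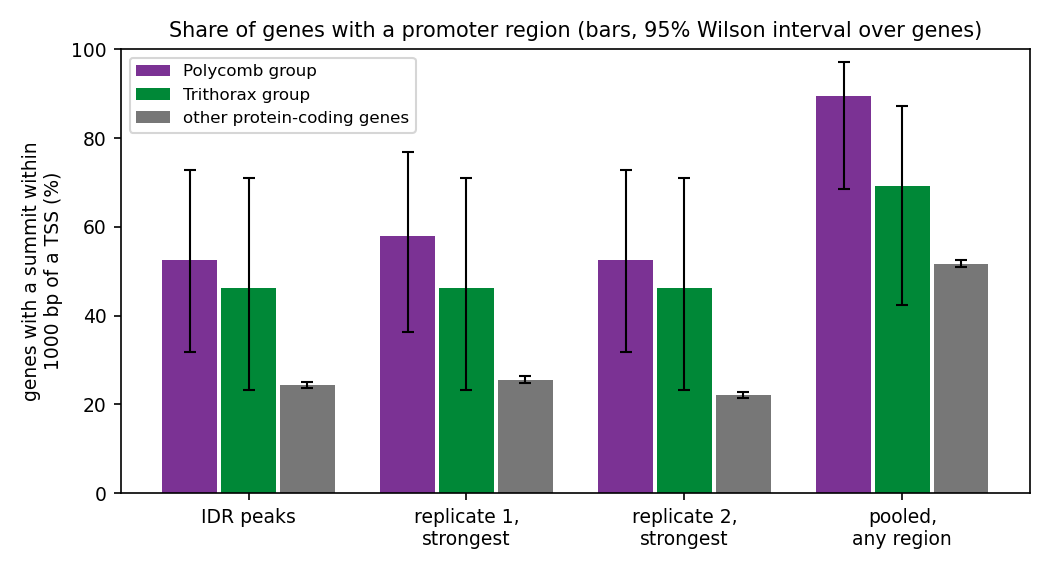
Share of genes (%) with a region summit within 1000 bp of a TSS, for Polycomb group, Trithorax group and other protein-coding genes, in the IDR peaks, the strongest regions of each replicate and the whole pooled list; bars are shares and whiskers are 95% Wilson intervals over genes. In the IDR peaks the bars stand at 52.6, 46.2 and 24.4%, and the intervals of the Polycomb and Trithorax groups overlap widely.

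Among the genes of Polycomb repressive complex 1 (PRC1), ph-p had the strongest promoter peaks of all 32 genes. ph-p and its tandem neighbour ph-d encode the Polyhomeotic subunits, and lie on chromosome X (ph-p at 2126210 to 2138371 and ph-d at 2115727 to 2123286, both on the minus strand). The strongest ph-p peak (X, 2137183 to 2137542) had a signal of 1071 and rank 41, with a matching region of rank 32 in replicate 1 and rank 46 in replicate 2. Its summit lay in an intron, 469 bp upstream of the nearest of 3 annotated TSSs. A second peak (X, 2137681 to 2138111, signal 706, rank 80) lay 417 bp inside the longest transcript, in an exon outside the coding sequence, and ranked 88 in replicate 1 and 66 in replicate 2. Further peaks of signal 305 and 207 lay deeper in introns of ph-p.

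ph-d had weaker peaks, both upstream of its TSSs and in the gap between the genes. They had signals of 169 (rank 1792, with rank 870 in replicate 1 and 2409 in replicate 2) at 761 bp and 120.0 (rank 3472, with rank 3197 in replicate 1 and 7788 in replicate 2) at 960 bp upstream, and the regions overlap. ph-p and ph-d are copies of each other, but no other place on the chromosome arms matched any of the 36 IDR peaks of the 32 genes over at least 100 bp at 90% identity.

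Psc, a RING finger subunit of PRC1 on arm 2R (12965997 to 12980994), had its strongest peak away from the promoter. An intron peak 5411 bp from the 5′ end of the gene (12975443 to 12975713) had a signal of 479.7 and rank 173, and ranked 196 in replicate 1 and 173 in replicate 2. The promoter peak of Psc had a signal of 207 and rank 1201. Su(z)2, which encodes a related protein and lies nearby, had no IDR peak. The best Su(z)2 promoter region ranked 5689 in the pooled list, 6183 in replicate 1 and 3932 in replicate 2. Scm, whose protein binds to PRC1, had a promoter peak of signal 135 and rank 2844 (rank 3150 in replicate 1 and 3232 in replicate 2).

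Pc and Sce, which encode the chromodomain subunit that reads methylated histone H3 and the ubiquitin ligase of PRC1, had no IDR peak. The best promoter region of Pc ranked 23269 of 29999 in the pooled list, 13316 in replicate 1 and 10898 in replicate 2, and that of Sce ranked 10008. In all, 4 of 7 PRC1 genes had a promoter peak, against 24.4% of other protein-coding genes.

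PRC2, the complex that methylates histone H3, also had a promoter peak at 4 of 7 genes, against 24.4% of other protein-coding genes. The strongest was at E(z), the methyltransferase itself, where the peak (3L, 10637873 to 10638196) had a signal of 356 and rank 350 and ranked 336 in replicate 1 and 525 in replicate 2. Its summit lay 66 bp inside the transcript, in an exon outside the coding sequence. Su(z)12, a core subunit, had a peak of signal 189 and rank 1432 (rank 1606 in replicate 1 and 1720 in replicate 2), 80 bp upstream of its TSS. Caf1-55, a histone-binding subunit that PRC2 shares with other complexes, had one of signal 154 (rank 2179), 91 bp upstream. Pcl, an accessory subunit, had one of signal 144 (rank 2494), 17 bp upstream. The Pcl region was among the 4782 strongest of replicate 1 (rank 2251) and not of replicate 2 (rank 5289). With the strongest regions of each replicate alone, the PRC2 count was 4 of 7 in replicate 1 and 3 of 7 in replicate 2. All 4 of these IDR summits also lay within 1000 bp of the TSS of a neighbouring gene.

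The remaining PRC2 genes had no IDR peak. esc and escl, which encode alternative forms of the same WD-repeat subunit, held no region in the pooled list, and esc held none in any of the 4 lists. escl had a single region, in replicate 2 alone, of rank 6856. The best promoter region of Jarid2, an accessory subunit, ranked 13453 in the pooled list and 5432 in replicate 2, and replicate 1 had none.

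Of the PhoRC genes, which encode the DNA-binding proteins Pho and Phol and their partner Sfmbt, only Sfmbt had an IDR peak. The Sfmbt peak (2L, 13176860 to 13177269) had a signal of 216 and rank 1096, and ranked 1300 in replicate 1 and 1268 in replicate 2. pho, on chromosome 4, had a best promoter region of rank 14454 in the pooled list and none in replicate 2. phol had one of rank 10482. Of the PR-DUB genes, which encode a complex that removes ubiquitin from histone H2A, calypso, the enzyme, had a peak of signal 189 and rank 1435, 639 bp upstream of its TSS. Its partner Asx had none, with a best promoter region of rank 4001 in replicate 1 and 12858 in replicate 2.

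**Figure D2:**
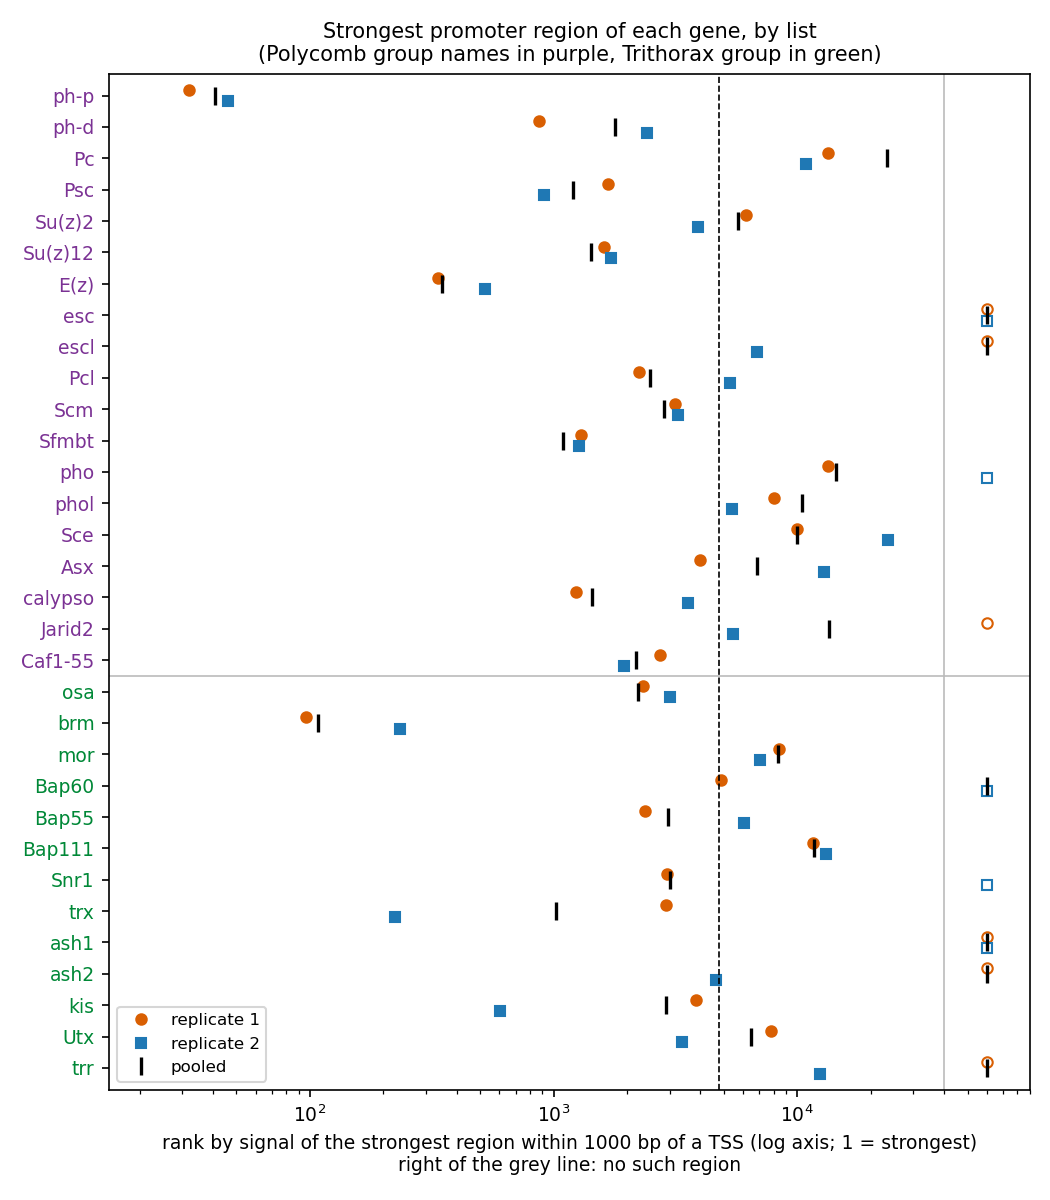
Rank by signal (log axis, 1 is the strongest) of the strongest region within 1000 bp of a TSS of each of the 32 genes, in replicate 1 (circles), replicate 2 (squares) and the pooled list (ticks); markers right of the grey line (open for the replicates) mean no such region, and the dashed line is rank 4782, the number of IDR peaks. The markers of ph-p lie at 32, 46 and 41, and esc and ash1 have no such region in any of these lists.

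The BRM complex, the fly SWI/SNF nucleosome remodeller, had a promoter peak at 4 of 7 genes, against 24.4% of other protein-coding genes. brm, its ATPase, had the strongest of them (3L, 15982852 to 15983167), with a signal of 586 and rank 108, and ranks of 96 in replicate 1 and 234 in replicate 2. The summit lay 152 bp upstream of brm and also within 1000 bp of the TSS of Arl1, a small GTPase gene. A further peak, of signal 236, lay in an intron of brm, where it was also within 1000 bp of the TSSs of CG17028 and CG17029. Bap55, an actin-related subunit, had a promoter peak of signal 132 (rank 2955, with rank 2368 in replicate 1 and 6021 in replicate 2). Snr1, a core subunit, had one of signal 130.5 (rank 3011). The Snr1 peak had a matching region of rank 2917 in replicate 1 and none in replicate 2. The Bap55 and Snr1 summits also lay within 1000 bp of the TSSs of Lhr and mRpL44. With the strongest regions of each replicate alone, the BRM complex count was 4 of 7 in replicate 1 and 2 of 7 in replicate 2.

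osa, the ARID-domain subunit that defines one form of the BRM complex, had the most IDR peaks of the 32 genes, with 7 over its 30533 bp. The strongest lay 13959 bp inside the gene (3R, 17704216 to 17704599), in an intron of osa and an exon of lncRNA:CR46035. It had a signal of 1142 and rank 33, with rank 29 in replicate 1 and 45 in replicate 2. Another intron peak, 17712 bp inside (3R, 17700383 to 17700787), had a signal of 700.4 and rank 83. The promoter peak of osa was weak beside these, with a signal of 152 and rank 2220. The other 3 genes of the complex had no IDR peak: the best promoter regions ranked 8340 for mor and 11670 for Bap111 in the pooled list, and Bap60 had only a region of rank 4859 in replicate 1.

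trx encodes a histone methyltransferase that maintains Hox gene expression, and had 5 IDR peaks over 23546 bp. The strongest (3R, 14283721 to 14284047, signal 413, rank 252) and the next (14277917 to 14278258, signal 389.9, rank 284) lay in introns, 2994 and 8844 bp inside the gene. The promoter peak of trx, with a signal of 222 and rank 1028, differed in rank between the replicates, at 2890 in replicate 1 and 223 in replicate 2. kis, a chromodomain helicase gene of 40089 bp, had 5 IDR peaks of signal 118 to 213. Of these, 1 lay at each of its TSSs and 3 in introns. The peak 132 bp upstream of the internal kis TSS ranked 14827 in replicate 1 and 604 in replicate 2.

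The other methyltransferase genes and their partners had no IDR peak. ash1, a histone methyltransferase gene, held no region summit in any list, although an IDR region overlapped its last bases. trr, a methyltransferase gene of the COMPASS-like complexes, had promoter regions in replicate 2 alone, the best of rank 12431, although the pooled list and replicate 1 each held a region in its body. ash2, a shared subunit of these complexes, had a region of rank 4626 in replicate 2 and none in replicate 1 or the pooled list. Utx, a histone demethylase gene, had best promoter regions of rank 7797 in replicate 1 and 3382 in replicate 2.

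**Figure D3:**
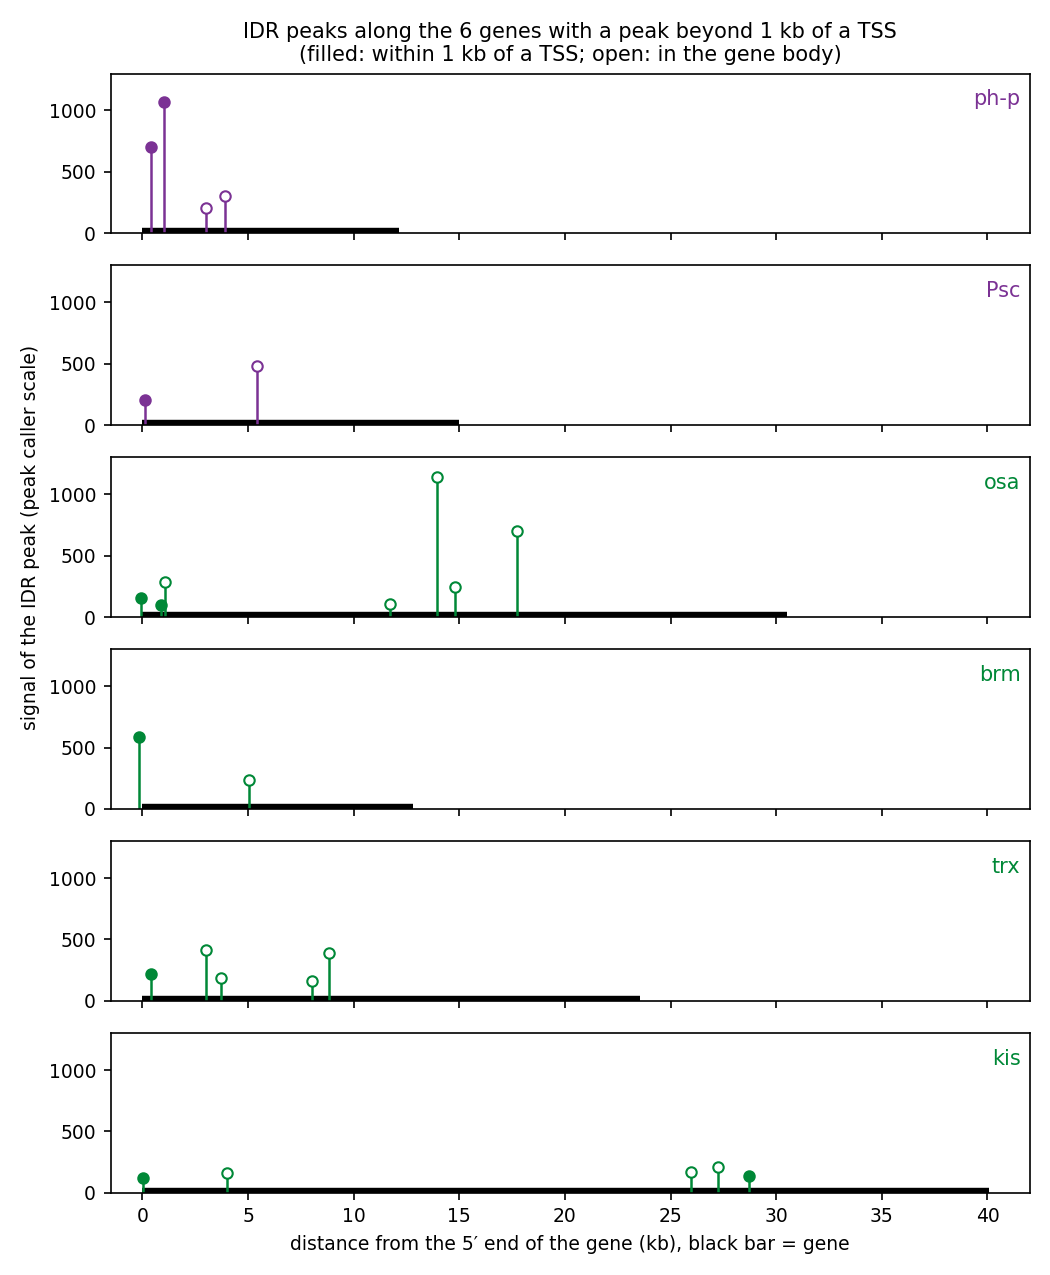
Signal of each IDR peak (vertical axis, peak caller scale) against its distance from the 5′ end of the gene (kb). Shown are the 6 genes with a peak in the body beyond 1 kb of any of their own TSSs. Filled points lie within 1 kb of a TSS of the gene, open points in the gene body, and the black bar is the gene. In osa, Psc, trx and kis the highest points, 1142, 479.7, 413 and 213, are open, while in ph-p and brm the highest, 1071 and 586, are filled.

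The sequences at 8 of these summits include strong peaks at ph-p (rank 41), brm (rank 108) and osa (rank 33). The others are weaker peaks with and without the words searched. They are at Su(z)12 (rank 1432), Sfmbt (rank 1096), a second place in osa (rank 605), trx (rank 1961) and kis (rank 1875). The trx peak is the weakest of its IDR peaks. Each sequence is 121 bases centred on the summit, from the release 6 genome, read 5′ to 3′ along the strand of the gene. Capitals mark the 6 words searched on either strand. These windows hold no annotated untranslated region. The ph-p and Sfmbt windows and that of the strongest osa peak hold few or no capitals, while the Su(z)12 and brm windows each hold TAATTA more than once. The second osa window and those of trx and kis come from intron peaks with the GAGA word or the Pho core word.
ph-p, chrX:2137264-2137384, minus strand: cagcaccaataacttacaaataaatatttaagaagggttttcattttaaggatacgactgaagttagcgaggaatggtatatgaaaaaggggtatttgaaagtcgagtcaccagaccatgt
Su(z)12, chr3L:19923482-19923602, minus strand: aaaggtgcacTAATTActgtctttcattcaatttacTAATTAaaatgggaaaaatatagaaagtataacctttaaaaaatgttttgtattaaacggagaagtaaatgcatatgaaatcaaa
Sfmbt, chr2L:13177005-13177125, minus strand: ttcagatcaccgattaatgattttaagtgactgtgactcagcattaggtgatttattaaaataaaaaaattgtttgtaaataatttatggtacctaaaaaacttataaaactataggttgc
brm, chr3L:15982961-15983081, minus strand: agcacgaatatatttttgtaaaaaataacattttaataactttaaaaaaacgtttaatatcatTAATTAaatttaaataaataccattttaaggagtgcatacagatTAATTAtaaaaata
osa, chr3R:17704331-17704451, minus strand: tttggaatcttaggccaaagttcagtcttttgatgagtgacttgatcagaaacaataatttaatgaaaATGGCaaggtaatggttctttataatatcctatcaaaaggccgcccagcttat
osa, chr3R:17717229-17717349, minus strand: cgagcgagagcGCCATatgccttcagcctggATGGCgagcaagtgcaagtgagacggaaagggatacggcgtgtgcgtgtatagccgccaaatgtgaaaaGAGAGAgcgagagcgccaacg
trx, chr3R:14278801-14278921, minus strand: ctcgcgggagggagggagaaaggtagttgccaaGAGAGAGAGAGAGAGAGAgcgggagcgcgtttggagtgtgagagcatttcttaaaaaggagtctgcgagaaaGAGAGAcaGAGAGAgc
kis, chr2L:246772-246892, minus strand: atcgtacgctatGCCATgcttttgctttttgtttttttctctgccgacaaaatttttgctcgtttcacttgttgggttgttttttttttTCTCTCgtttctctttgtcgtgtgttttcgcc

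IDR peaks in the gene body were found in 6 of the 32 genes (18.8%), which are longer than most other genes. An IDR summit in the body, beyond 1000 bp of any TSS of the same gene, was present in 2 of 19 Polycomb group genes (ph-p and Psc). The count was 4 of 13 in the Trithorax group (osa, brm, trx and kis), against 5.45% of other genes. TSSs of neighbouring genes were not considered here, and the brm summit lay within 1000 bp of those of CG17028 and CG17029. At least 2 IDR summits at the promoter or in the body were present in 3 of 19 (ph-p, ph-d and Psc) and 4 of 13 (osa, brm, trx and kis), against 6.91%. Counting promoter or body gave the same 16 genes as the promoter alone, so the shares stayed at 52.6% and 46.2%, against 26.8%.

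The median length was 5854 bp over the 32 genes and 2163 bp over the others, and its part in these counts was not tested. Among other genes within the length range of the 32 (1599 to 40089 bp), 29.2% had a promoter peak. Of the 1010 other genes of at least 20000 bp, 49.2% had at least 1 IDR summit and 31.1% at least 2, and trx, kis and osa are the 3 of the 32 genes of that length. Among these long genes, 90 (8.91%) had 5 or more IDR summits, as trx, kis and osa had, and 47 (4.65%) had 7 or more, as osa had.

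Most promoter summits lay upstream of the TSS, at a share close to that of other genes. For the strongest promoter peak of each gene, the summit was upstream in 13 of 16 genes (81.2%), against 80.6% of the 3393 other genes with a peak, and within 200 bp of the TSS in 11 of 16 (68.8%), against 61.6%. The median of these strongest signals was 189 in the Polycomb group and 143 in the Trithorax group, against 156 in the others. A signal of 500 or more was reached at 2 of 16 genes (12.5%), ph-p and brm, against 3.83% of others.

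**Figure D4:**
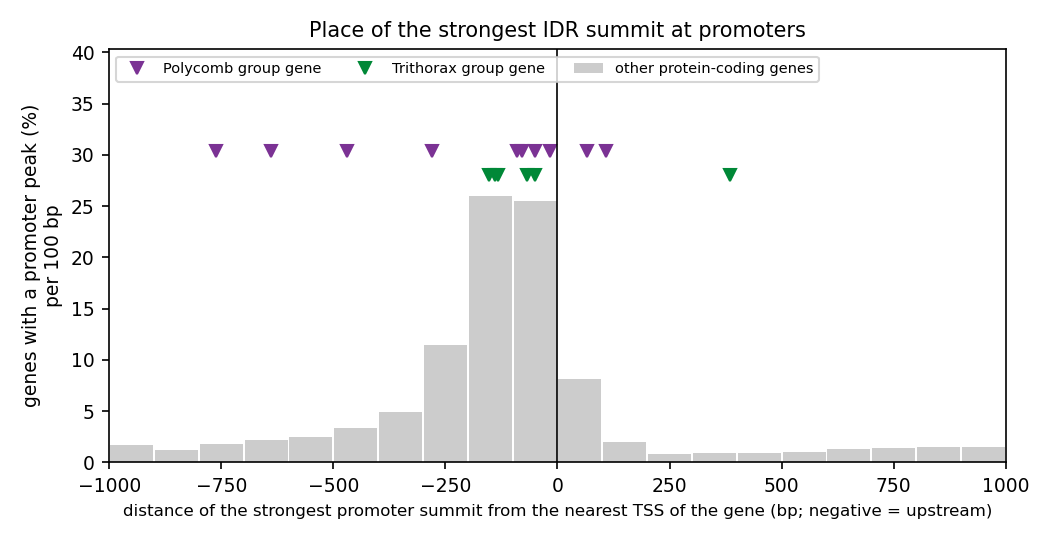
Distance (bp, negative is upstream) of the strongest promoter summit from the nearest TSS, for 10 Polycomb group genes (purple triangles, upper line) and 6 Trithorax group genes (green triangles, lower line) above the share (%) of 3393 other protein-coding genes in each 100 bp (grey bars). Of the 16 triangles, 13 lie left of the TSS, as far as 761 bp upstream, and the grey bars are highest in the 200 bp upstream of the TSS.

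Many of these promoters are shared with a neighbour, and a peak there cannot be given to either gene alone. At 10 of the 16 genes (62.5%) each promoter summit also lay within 1000 bp of the TSS of another protein-coding gene, against 58.0% of other genes with a peak. The neighbours were Pfdn6 at Su(z)12, Cnep1r2 at E(z), Hsf, the heat shock factor gene, at Pcl, Dh44 at Scm, CG43925 and CG5439 at Sfmbt, CG31344 at Caf1-55, Arl1 at brm, Lhr at Bap55, mRpL44 at Snr1, and CG42837, CG44242 and Lipt1 at calypso. Where each summit went only to the gene with the nearest TSS, 42.1% of Polycomb group and 30.8% of Trithorax group genes had a peak, against 17.9% of other genes. Among genes with no TSS of another protein-coding gene within 2000 bp, the count was 3 of 7 Polycomb group genes (ph-p, ph-d and Psc) and 1 of 2 Trithorax group genes (trx), against 15.2% of 5462 others.

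Some strong peaks lay just outside genes of these groups that had none. The region at 3L, 19590439 to 19590820, with a signal of 1632 and rank 21, overlapped the last bases of ash1, but its summit lay 154 bp beyond the 3′ end, at the promoter of CG14100. A peak of signal 1029 and rank 42 lay 1588 bp beyond the 3′ end of Pc, at the promoters of CG11309 and CG7632. One of signal 534 and rank 138 lay 1503 bp upstream of phol, at the TSSs of CG3437 and CG3552. The rule counted none of these for ash1, Pc or phol.

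Base composition at the summits was like that at other promoters. A and T made up a median of 64.2% of the 201 bp around the strongest promoter summit of the 16 genes, against 64.7% at other genes. Of the 20 promoter summits of the 32 genes, 6 (95% Wilson interval 14.5 to 51.9%) had the homeodomain word TAATTA within 100 bp on either strand, against 15.5% of 2924 summits at other protein-coding promoters. These were 2 of 12 Polycomb group (4.70 to 44.8%) and 4 of 8 Trithorax group summits (21.5 to 78.5%), at ph-d, Su(z)12, osa, brm, Snr1 and kis. The Trithorax interval does not contain the share of other promoters, but each of the 6 words was looked at in both groups. The 8 Trithorax group summits come from 6 genes, with 2 each from osa and kis. They are therefore not independent, and no test was made. The ladybird-type word TAACTA was at 2 of 20, at Bap55 and Snr1, against 11.7%. The summits of the strongest ph-p, osa and E(z) peaks had neither word.

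The GAGA word GAGAGA, which the GAGA factor binds, lay at 4 of 20 promoter summits (20.0%), against 15.1% at other promoters, and at 7 of the 16 summits of the 32 genes in gene bodies (43.8%, 23.1 to 66.8), against 16.2% of 1393 summits in the bodies of other genes. The 16 summits come from 6 genes, so they are not independent of each other. Of the 7, 3 were in trx, 2 in osa, 1 in Psc and 1 in kis. GCCAT, the core of the site bound by Pho, was at 7 of 20 promoter summits (35.0%), against 25.1%, and at 8 of 16 in gene bodies (28.0 to 72.0%), against 23.0%. The promoter words DRE (TATCGATA) and Motif 1 (GGTCACAC) were at 2 (Scm and osa) and 1 (Pcl) of the 20, against 7.93 and 4.24% of other promoter summits. Over all 20 promoter summits the intervals contain the other promoters' share for each of the 6 words. In gene bodies the intervals for GAGAGA and GCCAT do not contain the share of other gene bodies. Each of the 6 words was looked at there too, and no test was made. A match is a description of the letters and not a bound site.

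Nearly all of the peaks had a counterpart in both replicates, as other IDR peaks did. IDR peaks were derived from these same replicates, and the replicate lists also hold background regions, so this match is no separate check. The 36 IDR peaks of the 32 genes each had a region within 200 bp in replicate 1, against 98.9% of other IDR peaks on the arms, and 35 (97.2%) had one in replicate 2, against 95.7%. In replicate 1, 2 neighbouring peaks of osa matched the same region. Of the 36, 28 (77.8%) matched one of the 4782 strongest regions of both replicates, against 59.1% of the other 4717 IDR peaks on the arms. The median signal was 198 for these 36 and 147 for the others. The 36 peaks come from 16 genes, with 7 in osa and 5 each in trx and kis, so they are not independent. The 4717 others are not limited to promoters and gene bodies, so the 2 sets are not alike in place. By gene, 13 of the 32 (40.6%) had a promoter region among the strongest of both replicates, against 16.8% of other genes. Pcl, Bap55, Snr1 and Asx had one in replicate 1 alone, and Su(z)2, ash2 and Utx in replicate 2 alone.

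Genes that work with these groups were also listed, with earlier results of these data known. Of 15 Polycomb-associated genes, 8 (53.3%) had a promoter peak, and of 27 Trithorax-associated genes, 11 (40.7%), against the 24.4% of other protein-coding genes given above, which include them. The strongest Polycomb-associated peaks were at dsp1, an HMG-box protein gene (signal 302, rank 528), corto, a chromodomain gene (211), Trl, the GAGA factor gene (176), and Kdm2, a histone demethylase gene (171). The Trithorax-associated ones were at nej, the CBP acetyltransferase gene (signal 223), tara (198), tna (174) and mod(mdg4), a chromatin insulator gene (171). The ranks of these 19 promoter peaks ran from 528 at dsp1 to 3655 at skd.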

How the data were processed

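For Lbe-GFP embryos the authors deposited ChIP-seq regions as narrowPeak lists. The dm6 lists were used here: peak and background regions of each replicate and of both pooled (29999 each), and the 4782 IDR peaks derived from them, of which 4753 lie on 2L, 2R, 3L, 3R, 4 and X, called the 6 arms here. The signal, deposited by the authors for each region, is the peak caller's value. The −log10 q-value that the authors deposited was not used. Aligner and caller: not given in the sources used here. Of the IDR regions, 68.9% have the same width of 410 bp, so many summits are region centres.

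TSSs are all transcript starts of Ensembl release 115 (BDGP6.54), and sequences are from the release 6 genome. calypso and dsp1 were matched through RefSeq synonyms (caly, Dsp1). The members and lists were chosen with earlier results of these data known. The text accounts for each of the 32 genes, for the 4 highest-signal genes of each associated list, and for genes sharing a promoter peak. Shares have 95% Wilson intervals (SciPy 1.17.1), the difference has an interval built from them, and no test was made. Similar sequence was searched with blastn 2.17.0. The assignment was tested on simulated data, where 200 of 200 planted genes were recovered. Alternatives were 10 planned and 1 added after the data were seen.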

Additional observations from a re-analysis of the deposited data

How the results depend on the processing

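Under 10 other settings and 1 chosen after seeing the data (genes with no other protein-coding TSS within 2000 bp), the Polycomb share stayed between 42.1 and 57.9%, from 52.6%, and the share of all 32 genes between 34.4 and 56.2%, from 50.0%. The Trithorax share lay between 23.1 and 53.8%, from 46.2%. It left its Wilson interval only with the 2376 strongest IDR peaks, at 23.1%, where the promoter peaks of Bap55, Snr1 and kis were no longer counted. The share of other genes, 24.4%, moved with each choice but the strongest pooled regions: 21.4% with a 500 bp window, 29.1% with 2000 bp, 26.8% with gene bodies, 25.4% with region overlap, 13.7% with the 2376 strongest peaks, 22.6% with 1 TSS per gene, 17.9% with the nearest TSS and 15.2% at single-gene promoters. Leaving out a replicate gave 22.2 to 25.6%. The Polycomb and Trithorax shares were above that of other genes in each of these settings. The strongest pooled regions end at the same signal as the IDR peaks (98.7) and gave the same shares, so that setting adds no separate check. The single-gene setting holds only 2 Trithorax group genes, 1 of them with a peak. The difference between the groups ran from -7.14 to 19.0 points, so its sign depended on the setting. It stayed inside its interval, but that interval is wide (-25.9 to 36.9), so this says little about stability. The region lists carry no read counts, so what depth limits is unknown. No paired analysis was possible because there is 1 group.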
